A study of Mus musculus with 3 samples.

Results

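The tripartite motif (TRIM) family was described in the tibialis anterior, a fast muscle of the lower leg, of tumour-bearing and tumour-free mice. Members were all genes whose symbol begins with Trim and a number, without the muscle RING finger genes Trim54, Trim55 and Trim63 and without pseudogenes, which gave 64 of the 25206 genes measured. Male CD2 mice (CD2F1 in the study's methods) received an adeno-associated virus (AAV9) vector in the muscle at 10 weeks of age, at 1e+11 vector genomes, 2 weeks before tumour inoculation. The 3 groups were C26 FoxP1-shRNA (colon 26 adenocarcinoma cells, 500000 in each flank, and a vector that lowers the transcription factor FoxP1), C26 scrambled-shRNA (the same tumour and a vector with no target) and Sham scrambled-shRNA (saline in place of tumour cells, called Sham from here on). Muscles were taken 26 days after inoculation. All muscles therefore carried a vector, the scrambled one with a GFP marker and the FoxP1-shRNA one with mCherry, and both used the U6 promoter, which is active in most cell types. RNA of 3 mice per group was pooled on 1 array per group, so values carry neither errors nor tests, and a difference cannot be set against the spread between mice. Values are log2 expression values, in which a difference of 1 is 2-fold, and 2-fold was used as a fixed size for counting.

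Most TRIM proteins have a RING finger, which binds a ubiquitin-conjugating (E2) enzyme and passes ubiquitin to a substrate, followed by B-box zinc fingers and a coiled coil through which they form dimers and larger assemblies. The C-terminal domain, most often a PRY-SPRY domain, selects the substrate and divides the family into classes. In striated muscle the family is best known for the MuRF ligases, which ubiquitinate sarcomeric proteins during wasting, and for Trim72 (mitsugumin 53), which patches injured sarcolemma. Outside muscle, many members restrict viruses or tune innate immune signalling and are themselves induced by interferon.

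The knockdown target Foxp1 had a log2 value of 6.52 in C26 FoxP1-shRNA, 7.31 in C26 scrambled-shRNA and 6.41 in Sham. Across all genes the median log2 value was 3.99 in C26 FoxP1-shRNA, 4.05 in C26 scrambled-shRNA and 4.06 in Sham. Muscle identity was plain on all of them, with each of the 10 muscle fibre markers (Acta1, Ckm, myosin heavy chains and others) above the array's median. Brightness depends on the probes as well as on the amount of RNA, so levels are not compared between genes. A member at or below the array's median is called dim, and its differences lie near the bottom of the scale. The TRIM members had medians of 3.79 in C26 FoxP1-shRNA, 3.70 in C26 scrambled-shRNA and 3.85 in Sham, and 32 of the 64 were at or below the array's median on all 3 arrays. Members with near-identical copies, chiefly the lettered genes, may share probes, so that their values are uncertain.

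**Figure D1:**
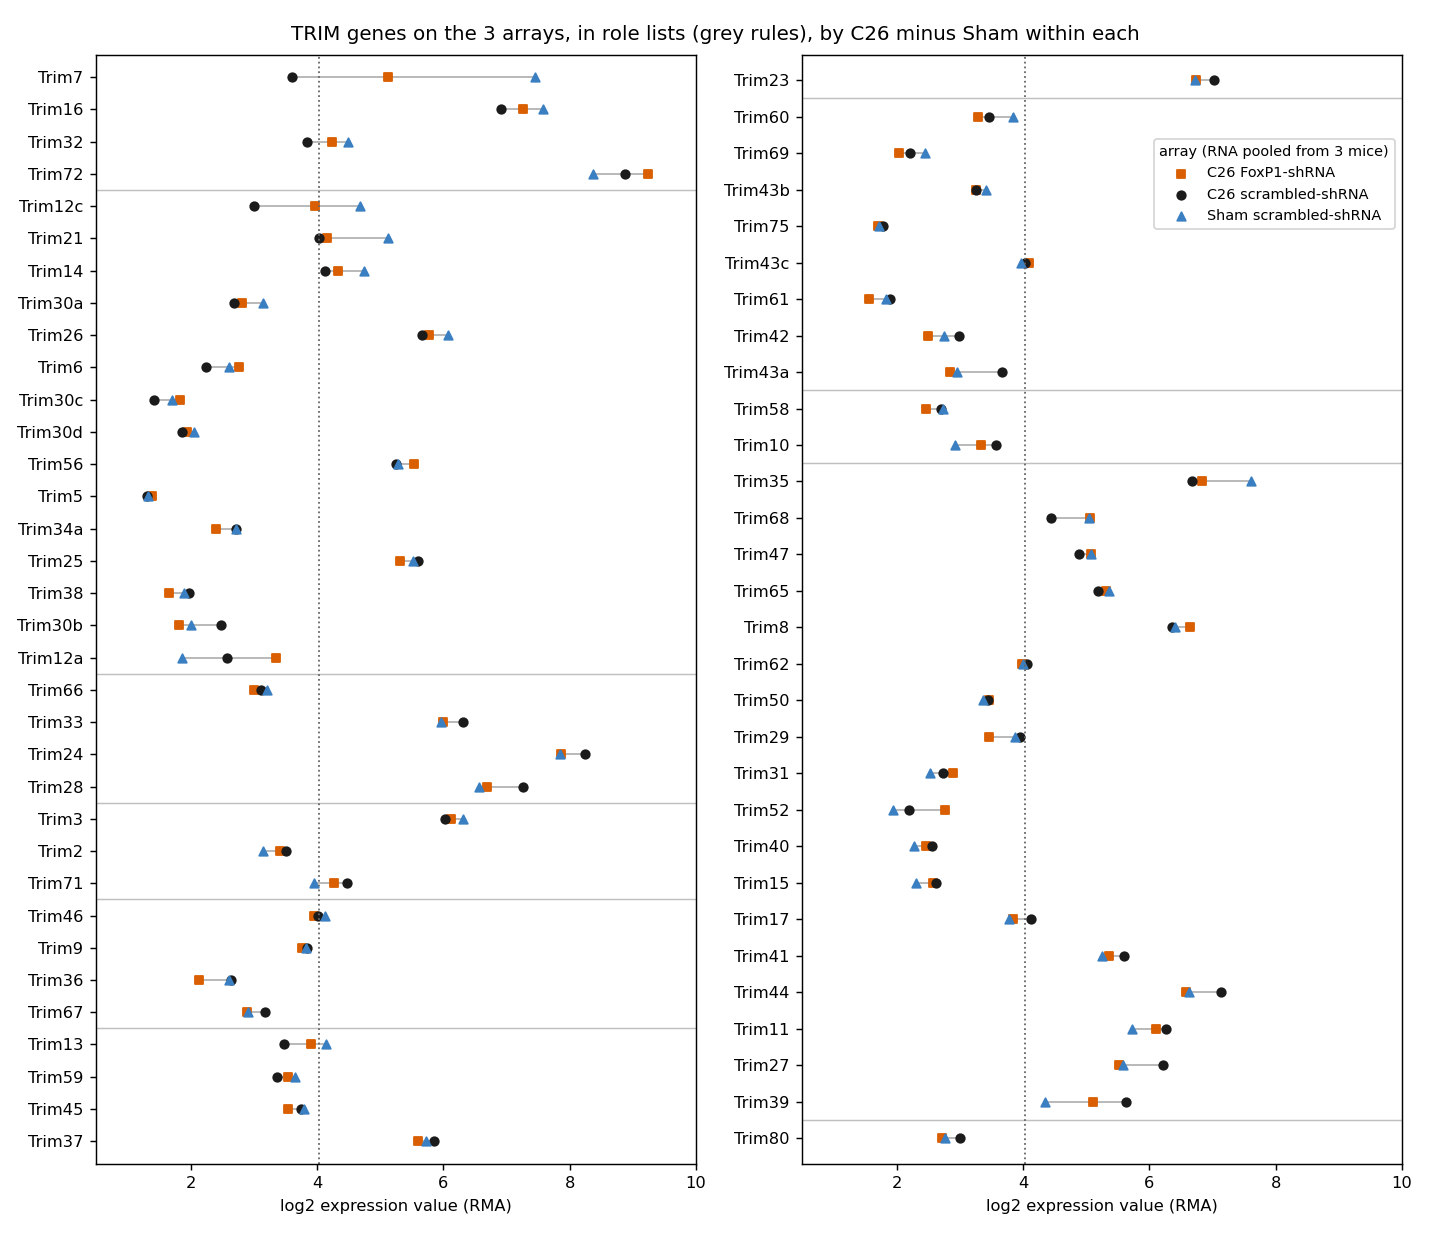
Log2 expression value (horizontal axis) of the 64 TRIM genes on the arrays of C26 FoxP1-shRNA (orange squares), C26 scrambled-shRNA (black circles) and Sham (blue triangles), each 1 array of RNA pooled from 3 mice. Grey rules separate the role lists, which run down the left column and on down the right one (muscle and membrane repair, interferon, TIF1, NHL, COS-box, membrane and ARF, germ line, erythroid, other signalling, and Trim80 alone), Trim32 and Trim71 are drawn in the first of their lists only, the dotted line marks the mean of the array medians, and grey bars span the 3 values, widest for Trim7 (5.13 in C26 FoxP1-shRNA, 3.61 in C26 scrambled-shRNA and 7.46 in Sham).

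In C26 scrambled-shRNA against Sham, 3 TRIM members were at or below 0.5 times Sham (Trim7, Trim12c and Trim21) and 1 was at or above 2 times Sham (Trim39). Of all genes, 4.33% were that much lower and 3.34% that much higher, against 4.69% and 1.56% of the members. The members' median log2 difference was 0.055, beside 0.032 over all genes, with a range from -3.85 to 1.28. At the smaller size of 1.5-fold, 9 members (14.1%) were lower and 6 (9.38%) higher, beside 10.5% and 10.1% of all genes. The 9 lower ones were all among the 32 members that were not dim on all arrays (28.1%, beside 16.7% of such genes), and 3 of those 32 were higher (9.38% beside 14.9%). Reading above the array's median on any 1 array is part of that selection, and a high Sham value alone admits a gene. Of the lower members, Trim12c and Trim13 were above the median in Sham only. Trim7, Trim21 and Trim32 were dim in C26 scrambled-shRNA. These shares are therefore a description.

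In C26 FoxP1-shRNA against C26 scrambled-shRNA, Trim7 was the only TRIM member at or above 2-fold and none was at or below 0.5-fold. Over all genes these sizes were reached by 1.44% and 1.06%. The members' median difference was -0.082, beside -0.034 over all genes, and 32 of the 64 lay within 1.2-fold. Against Sham, C26 FoxP1-shRNA had Trim12a past 2-fold higher and Trim7 past 2-fold lower, where 1.61% and 2.17% of all genes lay. The members' median was -0.057 there, beside -0.0041 over all genes. The comparisons share arrays (C26 scrambled-shRNA stands in both of the first 2), so a high or low value on one array enters each comparison that uses it.

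**Figure D2:**
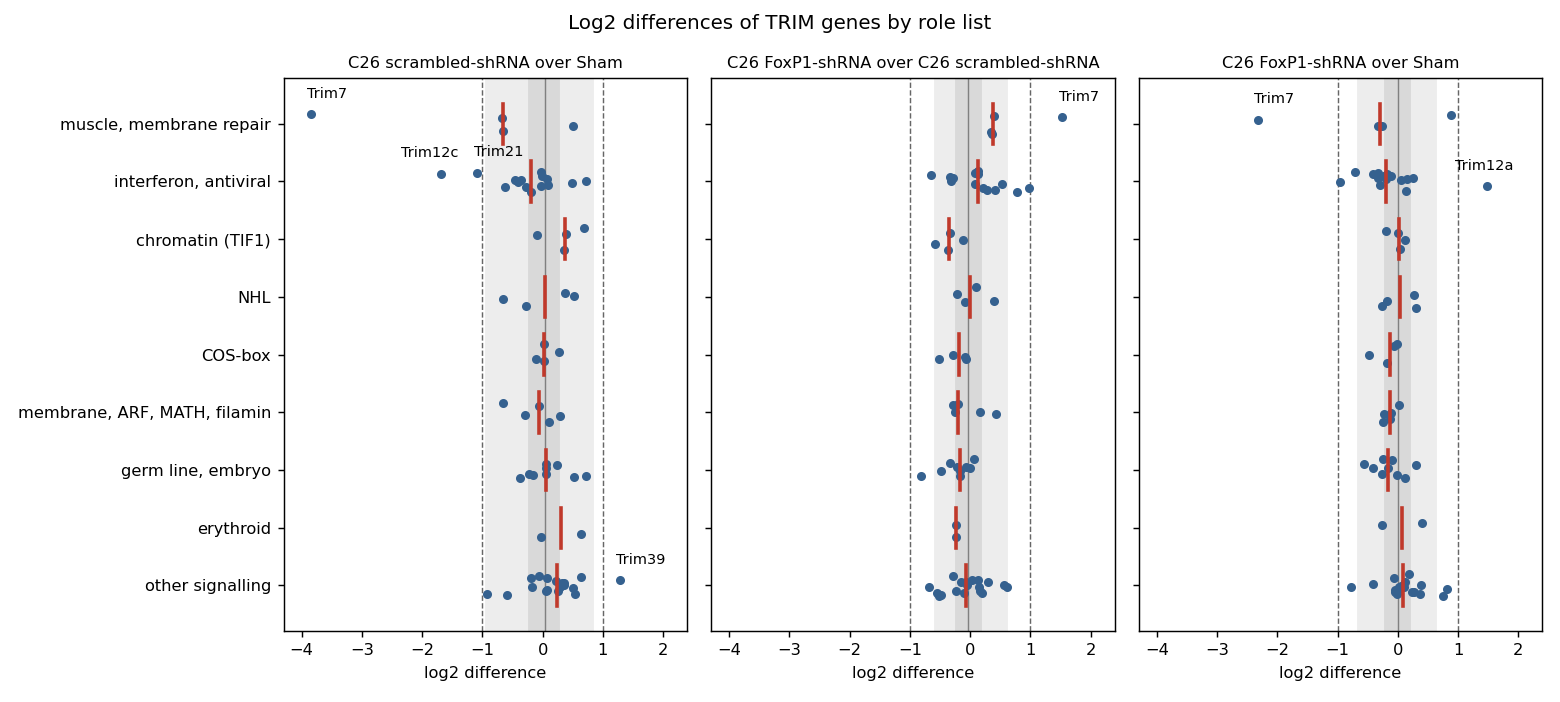
Log2 difference (horizontal axis) of each TRIM gene (blue points) in its role list (rows) for the 3 comparisons; red bars are list medians, and points are spread vertically at random. Dark and light grey bands hold the middle 50% and 90% of all 25206 genes, dashed lines mark 2-fold, and Trim7 lies outside both bands in all 3 panels, at -3.85, at 1.53 and at -2.33.

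Trim7 had the largest difference of the 64 members in each of the 3 comparisons. It encodes the glycogenin-interacting protein GNIP, a ligase with a PRY-SPRY domain named in human for binding glycogenin, the protein that primes glycogen. Its log2 value was 5.13 in C26 FoxP1-shRNA, 3.61 in C26 scrambled-shRNA and 7.46 in Sham. It was thus well above the array's median in Sham and below it in C26 scrambled-shRNA, with C26 FoxP1-shRNA between. The fold was 14.4 lower in C26 scrambled-shRNA relative to Sham, the 25th lowest difference of the 25206 genes. In C26 FoxP1-shRNA it was 2.88-fold higher than in C26 scrambled-shRNA, the 112th highest difference, and 5.02-fold lower than in Sham. Over 5 other scalings of the arrays the difference from Sham in C26 scrambled-shRNA ran from -4.13 to -3.63, and the difference between the tumour groups from 1.53 to 1.68. Its neighbour Trim41, which lies next to it on chromosome 11 with no protein-coding gene between them (RefSeq, GRCm38.p6), had 5.36 in C26 FoxP1-shRNA, 5.60 in C26 scrambled-shRNA and 5.25 in Sham and differed by 0.35 and -0.23 in the first 2 comparisons. The large difference was therefore not shared by the adjacent member.

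RefSeq gives Trim7 more than 1 start, and the 120 bases before the downstream one are shown because they hold the CAGCTG E-box that muscle bHLH factors such as MyoD are known to bind (capitals, 96 to 91 bases before the start; chr11:48837351-48837470, plus strand, GRCm38.p6).
Trim7: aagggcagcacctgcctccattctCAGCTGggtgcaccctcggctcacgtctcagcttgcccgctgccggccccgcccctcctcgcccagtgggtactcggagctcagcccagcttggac
The array gives 1 value per gene and does not tell the starts apart. This E-box (CAGCTG, its own reverse complement) occurred within 250 bases before to 50 after a start in 15 of the 50 members with a RefSeq promoter (30%), beside 18.3% of 27025 genes. Within the 250 bases before the start alone, the shares were 24% and 14.7%. Both counts hold Trim60 and Trim61, which have the same promoter region, and Trim5, Trim12a and Trim12c, whose promoters are alike. The members counted are thus not independent. The forkhead core GTAAACA or its reverse complement was found in 1 member (Trim67), or 2% beside 4.05% of genes. The MEF2 core (CTA and TAG with any 4 bases between) was found in none, beside 4.23% of genes, and CACGTG, the E-box of clock factors, in 3 (6% beside 8.09%). A match is a description of letters and not a bound site.

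The other members known for a role in muscle or membrane repair differed less. Trim72 (mitsugumin 53) gathers vesicles at injured sarcolemma; it had 9.24 in C26 FoxP1-shRNA, 8.87 in C26 scrambled-shRNA and 8.37 in Sham. It was lowest in Sham, at a log2 difference from Sham of 0.87 for C26 FoxP1-shRNA and 0.51 for C26 scrambled-shRNA, each short of 2-fold. With the arrays centred on the mean of 9 reference genes the difference for C26 FoxP1-shRNA was 1.13, past 2-fold. Trim16, which lacks a RING finger and in human cells marks damaged lysosomes for autophagy, had 7.26 in C26 FoxP1-shRNA, 6.91 in C26 scrambled-shRNA and 7.59 in Sham. Trim32, an NHL-domain ligase mutated in human limb-girdle muscular dystrophy, had 4.23 in C26 FoxP1-shRNA, 3.84 in C26 scrambled-shRNA and 4.49 in Sham. These 2 genes and Trim7 thus had their lowest value in C26 scrambled-shRNA and their highest in Sham, whereas Trim72 did not. For the 4 genes the median difference was -0.66 in C26 scrambled-shRNA against Sham and 0.38 between the tumour groups (C26 FoxP1-shRNA minus C26 scrambled-shRNA). Neither changed sign under the other scalings.

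Genes that work beside these members gave the following values. In C26 scrambled-shRNA against Sham, 4.33% of all genes were past 2-fold lower and 3.34% higher. Among genes not dim on all 3 arrays the shares were 7.40% and 5.70%. In C26 FoxP1-shRNA over C26 scrambled-shRNA, 1.44% of all genes and 2.38% of those not dim were past 2-fold higher. Of 8 glycogen genes measured in C26 scrambled-shRNA, 3 were at or below 0.5 times Sham (Phkg1, Phka1 and Ppp1r3a, subunits of phosphorylase kinase and of the glycogen-targeted phosphatase) and none was 2-fold higher. Phkg1 had 8.71 in C26 FoxP1-shRNA, 6.57 in C26 scrambled-shRNA and 9.90 in Sham, and was the only one at or above 2-fold in C26 FoxP1-shRNA over C26 scrambled-shRNA. Gyg, the glycogenin gene, had 10.67 in C26 FoxP1-shRNA, 10.60 in C26 scrambled-shRNA and 10.36 in Sham, so that it differed little where Trim7 differed most. Of 11 membrane repair genes, 3 were 2-fold lower in C26 scrambled-shRNA relative to Sham. Cav3, the caveolin of muscle and a known partner of Trim72, had 6.15 in C26 FoxP1-shRNA, 4.56 in C26 scrambled-shRNA and 6.27 in Sham. Capn3, the muscle calpain, had 8.91 in C26 FoxP1-shRNA, 7.80 in C26 scrambled-shRNA and 8.87 in Sham, and both genes were past 2-fold higher in C26 FoxP1-shRNA relative to C26 scrambled-shRNA. Anxa5, an annexin that coats torn membrane, had 6.97 in C26 FoxP1-shRNA, 6.93 in C26 scrambled-shRNA and 7.99 in Sham. Dysf (dysferlin) had 7.68 in C26 FoxP1-shRNA, 7.24 in C26 scrambled-shRNA and 7.25 in Sham.

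The interferon and antiviral class held 15 of the members, of which 2 were past 2-fold lower in C26 scrambled-shRNA relative to Sham and none higher, where 4.33% and 3.34% of all genes lay. Trim12c is one of the mouse homologues of human TRIM5, which binds retroviral capsids. It had 3.97 in C26 FoxP1-shRNA, 3.0 in C26 scrambled-shRNA and 4.68 in Sham, a difference of -1.69 in C26 scrambled-shRNA against Sham. C26 FoxP1-shRNA lay between, 1.96-fold above C26 scrambled-shRNA, and just past 2-fold under each of the 5 other scalings (1.01 to 1.13 on the log2 scale). Trim12c was dim in both tumour groups and above the array's median in Sham only, so this difference lies between dim values. Trim21, a cytosolic antibody receptor, had 4.16 in C26 FoxP1-shRNA, 4.04 in C26 scrambled-shRNA and 5.13 in Sham. It was at 0.513 times Sham in C26 FoxP1-shRNA and 0.471 times Sham in C26 scrambled-shRNA, so that both tumour groups lay close together and below Sham. Its difference of -1.09 in C26 scrambled-shRNA was -0.87, short of 2-fold, when arrays were centred on the mean of the reference genes.

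Trim12a, the close relative of Trim12c, gave a different order, with 3.35 in C26 FoxP1-shRNA, 2.58 in C26 scrambled-shRNA and 1.87 in Sham. It was 2.80-fold higher in C26 FoxP1-shRNA relative to Sham, but it was dim on all 3 arrays. Trim14, an adaptor of antiviral signalling at mitochondria that has no RING finger, had 4.33 in C26 FoxP1-shRNA, 4.12 in C26 scrambled-shRNA and 4.74 in Sham. Trim26, which acts on the interferon regulator IRF3, had 5.77 in C26 FoxP1-shRNA, 5.66 in C26 scrambled-shRNA and 6.07 in Sham. Both were lowest in C26 scrambled-shRNA and highest in Sham, within 2-fold. Trim25, which ubiquitinates the RNA sensor RIG-I, had 5.32 in C26 FoxP1-shRNA, 5.59 in C26 scrambled-shRNA and 5.51 in Sham, and Trim56, a regulator of double-stranded DNA sensing, had 5.53 in C26 FoxP1-shRNA, 5.26 in C26 scrambled-shRNA and 5.29 in Sham; both differed by under 0.3 in each comparison. The other 8 members of the class (Trim5, Trim6, the Trim30 genes, Trim34a and Trim38) were dim on all 3 arrays and none was past 2-fold. The class median was -0.20 in C26 scrambled-shRNA against Sham, which turned to 0.023 with centring on the mean of the reference genes, and 0.12 in C26 FoxP1-shRNA against C26 scrambled-shRNA, which kept its sign under each other scaling.

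The core of the interferon-stimulated response element, TTTC repeated after any 2 bases, was searched on both strands from 250 bases before to 50 after a start. The promoters of this class carried it in 8 of its 14 members with a RefSeq promoter, against 1 of 36 other members (Trim2). Over all members the share was 9 of 50 (18%), beside 3.99% of all genes. In the 250 bases before the start alone it was 5 of 50 (10%), beside 3.46% of all genes, and all 5 were of this class. Members that share a promoter sequence are not independent in such a count. The stretches below show the element (capitals) in the members whose match lies before the start, with the corresponding stretch of Trim12a in which the annotated start falls ahead of it. Each is the 60 bases directly before the start on chromosome 7, minus strand, except that of Trim26, which runs from 180 to 121 bases before the start on chromosome 17, plus strand (RefSeq, GRCm38.p6). Trim30a has more than 1 start, and the one with the match before it is shown. At its other start the element lies 3 to 12 bases after it. The regions are chr7:104353350-104353409 for Trim12c, chr7:104315496-104315555 for Trim12a, chr7:104288107-104288166 for Trim5, chr7:104465194-104465253 for Trim30a, chr7:104507850-104507909 for Trim30d and chr17:36836966-36837025 for Trim26.
Trim12c: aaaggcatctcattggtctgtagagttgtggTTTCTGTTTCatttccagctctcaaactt
Trim12a: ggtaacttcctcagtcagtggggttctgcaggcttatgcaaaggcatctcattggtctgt
Trim5: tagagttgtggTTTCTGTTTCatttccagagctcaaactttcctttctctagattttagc
Trim30a: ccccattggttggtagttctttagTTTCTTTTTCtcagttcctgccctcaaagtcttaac
Trim30d: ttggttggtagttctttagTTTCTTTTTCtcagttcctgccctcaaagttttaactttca
Trim26: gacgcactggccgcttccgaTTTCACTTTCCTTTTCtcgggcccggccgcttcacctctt
In Trim12c the element lay 29 to 20 bases before the start, and in Trim12a 11 to 20 bases after it. In Trim26 a pair of matches overlap, from 160 to 145 bases before the start. Aligned without gaps, the bases before the start of Trim12a and Trim12c were 81.9% identical over 210 bases, those of Trim5 and Trim12a 100% identical over 191 bases, and those of Trim30a and Trim30d 92.2% identical over 245 bases. Trim5 was dim on all 3 arrays, with 1.38 in C26 FoxP1-shRNA, 1.30 in C26 scrambled-shRNA and 1.33 in Sham.

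**Figure D3:**
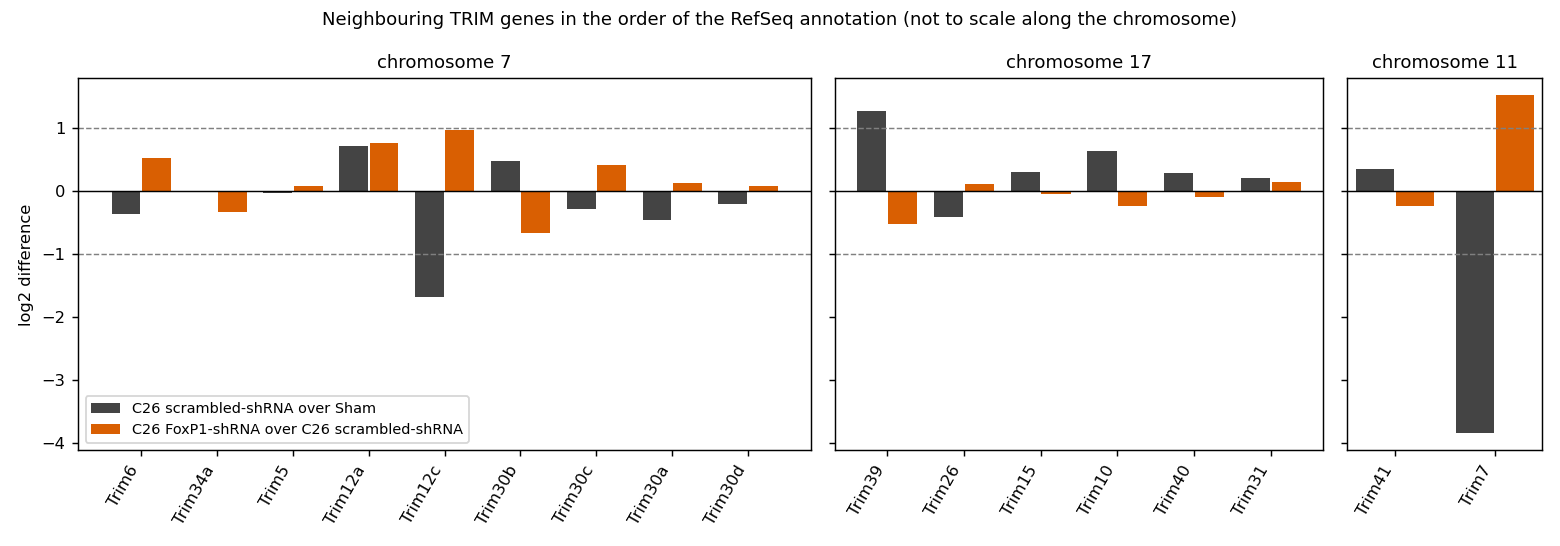
Log2 difference (vertical axis) of neighbouring TRIM genes in RefSeq gene order on chromosomes 7, 17 and 11, for C26 scrambled-shRNA over Sham (grey bars) and C26 FoxP1-shRNA over C26 scrambled-shRNA (orange bars), each from 1 array per group; dashed lines mark 2-fold. Some neighbours lie far apart, with Trim12c at -1.69 beside Trim12a at 0.72 and Trim7 at -3.85 beside Trim41 at 0.35, and some lie close, with Trim40 at 0.29 beside Trim31 at 0.22.

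Much of this class lies together. Chromosome 7 held 15 of the 64 members, and 9 of them (Trim6, Trim34a, Trim5, Trim12a, Trim12c, Trim30b, Trim30c, Trim30a and Trim30d) follow each other with at most 1 protein-coding gene between neighbours in the GRCm38.p6 annotation. In C26 scrambled-shRNA against Sham this run spanned -1.69 for Trim12c to 0.72 for Trim12a. On chromosome 17, Trim26, Trim15, Trim10, Trim40 and Trim31 are adjacent, and Trim39 lies 9 protein-coding genes away. Trim39, a regulator of the anaphase-promoting complex and of apoptosis, had 5.10 in C26 FoxP1-shRNA, 5.63 in C26 scrambled-shRNA and 4.34 in Sham. It was the only member past 2-fold higher in C26 scrambled-shRNA (2.43-fold), and in C26 FoxP1-shRNA it lay 1.44-fold lower than there and 1.69-fold above Sham. Trim26 differed by -0.41 in C26 scrambled-shRNA against Sham, whereas the 4 dim neighbours after it differed by 0.22 to 0.64.

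Other interferon-stimulated genes were set beside the TRIM class. As deposited, its 15 members had a median of -0.20 in C26 scrambled-shRNA against Sham, with 11 below 0, and 9 of them were dim on all arrays. Of 22 interferon-stimulated genes measured, 16 of them not dim on all arrays, 13 in C26 scrambled-shRNA were at or below 0.5 times Sham, none was 2-fold higher, and the median was -1.31 (from -1.59 to -1.09 over the other scalings). The share that much lower was 4.33% of all genes and 7.40% of genes not dim on all arrays. Stat2, a subunit of the factor that binds the interferon element, had 4.97 in C26 FoxP1-shRNA, 4.93 in C26 scrambled-shRNA and 6.58 in Sham. Irf9, the DNA-binding subunit of the same factor, had 5.15 in C26 FoxP1-shRNA, 4.74 in C26 scrambled-shRNA and 6.05 in Sham. Parp14, an ADP-ribosyltransferase, had 5.20 in C26 FoxP1-shRNA, 5.25 in C26 scrambled-shRNA and 7.48 in Sham. In C26 FoxP1-shRNA against C26 scrambled-shRNA none of the 22 was past 2-fold either way, with a median of 0.14, and against Sham 11 were 2-fold lower, with a median of -1.0. Against Sham, 2.17% of all genes were that much lower in C26 FoxP1-shRNA. The differences of single genes between the tumour groups ran from -0.67 to 0.93. Of 4 interferon receptor genes, Ifngr2 was 2-fold lower in C26 scrambled-shRNA relative to Sham, with 8.34 in C26 FoxP1-shRNA, 7.39 in C26 scrambled-shRNA and 8.68 in Sham.

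Cell type markers moved between the same arrays. In C26 scrambled-shRNA against Sham, 4 of 8 T cell markers and 4 of 6 fibroblast markers were past 2-fold lower, 4 of 10 neutrophil markers were past 2-fold higher, and of 10 macrophage markers 3 were higher and 2 lower. Beside these counts, 4.33% of all genes were that much lower and 3.34% higher. In C26 FoxP1-shRNA against C26 scrambled-shRNA, 5 T cell markers were lower and 3 higher. Cd3e was at -2.43 there, beside a list median of -0.12, and it weighs on the list's mean. The mean log2 value of the T cell list was 2.98 in C26 FoxP1-shRNA, 3.33 in C26 scrambled-shRNA and 4.35 in Sham, and that of the fibroblast list was 7.34 in C26 FoxP1-shRNA, 6.81 in C26 scrambled-shRNA and 8.31 in Sham. That of the neutrophil list was 4.08 in C26 FoxP1-shRNA, 4.46 in C26 scrambled-shRNA and 3.23 in Sham, that of the macrophage list 5.55 in C26 FoxP1-shRNA, 6.06 in C26 scrambled-shRNA and 6.06 in Sham, and that of the muscle fibre list 11.50 in C26 FoxP1-shRNA, 11.24 in C26 scrambled-shRNA and 11.65 in Sham. That of 5 erythroid markers was 4.37 in C26 FoxP1-shRNA, 3.84 in C26 scrambled-shRNA and 3.35 in Sham. Among them Alas2, the haem synthesis enzyme of red cells, had 7.98 in C26 FoxP1-shRNA, 6.51 in C26 scrambled-shRNA and 5.98 in Sham, and Slc4a1, the red cell anion exchanger, had 5.36 in C26 FoxP1-shRNA, 4.78 in C26 scrambled-shRNA and 3.39 in Sham, so that both were highest in C26 FoxP1-shRNA. Hbb-bs, which was dim on all arrays, was also highest there, at 2.81. Epb42 and Klf1, also dim on all arrays, were highest in C26 scrambled-shRNA, at 3.69 and 2.64. The endothelial list stood at 7.14 in C26 FoxP1-shRNA, 7.36 in C26 scrambled-shRNA and 7.24 in Sham. None of 4 B cell markers was above the array's median on any array. In whole muscle, fewer cells of a type and less RNA per cell cannot be told apart, and the part of these markers in the values of the members was not tested.

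**Figure D4:**
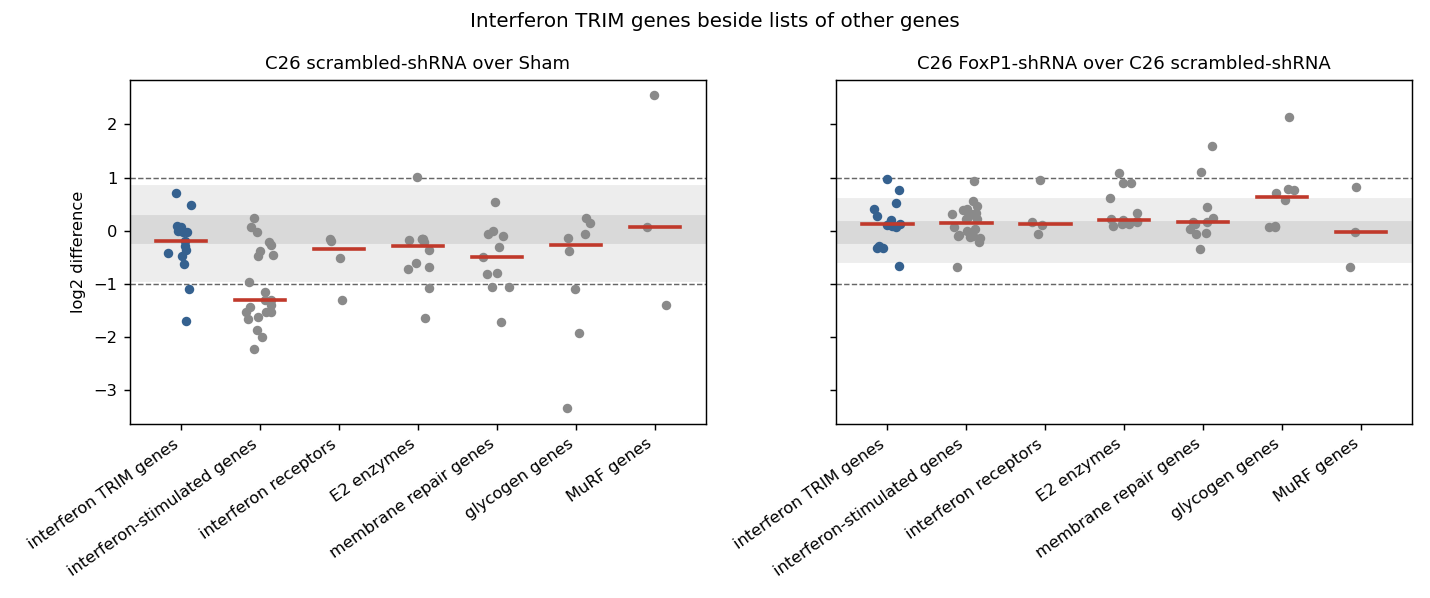
Log2 difference (vertical axis) of the interferon TRIM genes (blue points) beside interferon-stimulated genes, interferon receptors, E2 enzymes, membrane repair genes, glycogen genes and MuRF genes (grey points) for C26 scrambled-shRNA over Sham (left) and C26 FoxP1-shRNA over C26 scrambled-shRNA (right); red bars are list medians, dark and light grey bands hold the middle 50% and 90% of all genes, and dashed lines mark 2-fold. On the left the interferon-stimulated genes had a median of -1.31, and the TRIM genes of the interferon class stood at -0.20.

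The chromatin class was higher in C26 scrambled-shRNA than in either other group in its 3 bright members. These TIF1 proteins carry a PHD finger and bromodomain and act as transcriptional corepressors. Trim28 (KAP1), the corepressor of KRAB zinc finger proteins, had 6.68 in C26 FoxP1-shRNA, 7.26 in C26 scrambled-shRNA and 6.57 in Sham. Trim24 (TIF1 alpha), a cofactor of nuclear receptors, had 7.86 in C26 FoxP1-shRNA, 8.24 in C26 scrambled-shRNA and 7.85 in Sham. Trim33 (TIF1 gamma), a ligase of the SMAD4 pathway, had 5.99 in C26 FoxP1-shRNA, 6.32 in C26 scrambled-shRNA and 5.96 in Sham. C26 scrambled-shRNA was 1.61-fold (Trim28), 1.31-fold (Trim24) and 1.29-fold (Trim33) above Sham, so that none came to 2-fold. As deposited, C26 FoxP1-shRNA lay within 1.2-fold of Sham in each, as did 52.4% of genes not dim on all 3 arrays. Over the other scalings its log2 difference from Sham reached 0.37 (Trim28), 0.27 (Trim24) and 0.29 (Trim33), past 1.2-fold. Trim66, a testis member of the class, was dim, with 3.0 in C26 FoxP1-shRNA, 3.12 in C26 scrambled-shRNA and 3.20 in Sham. The class median was 0.37 in C26 scrambled-shRNA against Sham (0.091 to 0.59 over the other scalings) and -0.35 in C26 FoxP1-shRNA against C26 scrambled-shRNA (-0.38 to -0.20). Among genes of any kind that were not dim on all 3 arrays, 14.9% were 1.5-fold or more higher in the first of these comparisons. In this class Trim28 alone reached that size.

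In the signalling group, 10 of the 18 members had their highest deposited value in C26 scrambled-shRNA, Trim27 and Trim44 among them. Trim27 (RFP), a nuclear RING protein first known as a fusion partner of the RET kinase, had 5.52 in C26 FoxP1-shRNA, 6.21 in C26 scrambled-shRNA and 5.58 in Sham. Trim44, which has a ubiquitin protease-type zinc finger in place of a RING finger, had 6.58 in C26 FoxP1-shRNA, 7.13 in C26 scrambled-shRNA and 6.63 in Sham. Trim68, a cofactor of the androgen receptor in human cells, went the other way with 5.06 in C26 FoxP1-shRNA, 4.45 in C26 scrambled-shRNA and 5.04 in Sham. For these 3 genes, too, C26 FoxP1-shRNA and Sham lay within 1.2-fold of each other as deposited. The same held for 59.6% of all genes and 60.9% of the TRIM members. Trim35, which in human cells binds the pyruvate kinase isoform PKM2, had 6.82 in C26 FoxP1-shRNA, 6.67 in C26 scrambled-shRNA and 7.60 in Sham, a difference of -0.93 in C26 scrambled-shRNA against Sham that fell just short of 2-fold and passed it (-1.21) with centring on the median of the reference genes. In it, both tumour groups lay below Sham. The dim Trim52 had 2.76 in C26 FoxP1-shRNA, 2.19 in C26 scrambled-shRNA and 1.94 in Sham. Trim8, Trim11, Trim41, Trim47 and Trim65, all bright, were within 1.5-fold in each comparison. Of the 18 members of the group, Trim39 alone was past 2-fold in any comparison, and the median was 0.23 in C26 scrambled-shRNA against Sham, which turned to -0.048 with centring on the median of the reference genes.

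The remaining classes stayed within 2-fold in all 3 comparisons. Among proteins with an NHL propeller, which bind RNA or act in neurons, Trim3 had 6.12 in C26 FoxP1-shRNA, 6.03 in C26 scrambled-shRNA and 6.31 in Sham, and Trim71 (LIN41), a translational repressor of stem cells, had 4.26 in C26 FoxP1-shRNA, 4.48 in C26 scrambled-shRNA and 3.96 in Sham. Trim46, a COS-box protein that bundles axonal microtubules, had 3.95 in C26 FoxP1-shRNA, 4.02 in C26 scrambled-shRNA and 4.13 in Sham, and its class mates Trim9, Trim36 and Trim67 were dim. Trim13, anchored in the endoplasmic reticulum where it acts in protein disposal, had 3.91 in C26 FoxP1-shRNA, 3.48 in C26 scrambled-shRNA and 4.14 in Sham. Trim23, which carries an ARF GTPase domain, had 6.74 in C26 FoxP1-shRNA, 7.02 in C26 scrambled-shRNA and 6.73 in Sham, and Trim37, a MATH-domain ligase of peroxisomes and centrosomes, had 5.60 in C26 FoxP1-shRNA, 5.85 in C26 scrambled-shRNA and 5.73 in Sham. Trim10 and Trim58, known from red cell development, were dim, with 3.32 in C26 FoxP1-shRNA, 3.57 in C26 scrambled-shRNA and 2.93 in Sham for Trim10 and 2.47 in C26 FoxP1-shRNA, 2.70 in C26 scrambled-shRNA and 2.73 in Sham for Trim58. Trim10 was highest in C26 scrambled-shRNA and Trim58 in Sham. Of the 5 erythroid markers, Alas2, Slc4a1 and Hbb-bs were highest in C26 FoxP1-shRNA, and Epb42 and Klf1 in C26 scrambled-shRNA. The part of red cells in the values of Trim10 and Trim58 was not tested. Of 9 germ line and embryo members, 7 were dim on all 3 arrays, the others being Trim71 and Trim43c (4.10 in C26 FoxP1-shRNA, 4.03 in C26 scrambled-shRNA and 3.97 in Sham). The lowest difference among them was -0.82, for Trim43a in C26 FoxP1-shRNA against C26 scrambled-shRNA, with 2.84 in C26 FoxP1-shRNA, 3.66 in C26 scrambled-shRNA and 2.94 in Sham. Trim80 belongs to no class here and had 2.71 in C26 FoxP1-shRNA, 2.99 in C26 scrambled-shRNA and 2.76 in Sham. Trim30c (1.83 in C26 FoxP1-shRNA, 1.42 in C26 scrambled-shRNA and 1.70 in Sham) and Trim75 (1.70 in C26 FoxP1-shRNA, 1.78 in C26 scrambled-shRNA and 1.72 in Sham) were dim on all 3 arrays.

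The MuRF genes, which are not members, were set beside them. Trim63 (MuRF1), the ligase induced in atrophy, had 10.89 in C26 FoxP1-shRNA, 11.57 in C26 scrambled-shRNA and 9.03 in Sham, 5.85-fold above Sham in C26 scrambled-shRNA. No member was that much higher, the nearest being Trim39 at 2.43-fold. Trim55 (MuRF2) had 6.81 in C26 FoxP1-shRNA, 5.99 in C26 scrambled-shRNA and 7.39 in Sham, and Trim54 (MuRF3) had 8.64 in C26 FoxP1-shRNA, 8.67 in C26 scrambled-shRNA and 8.59 in Sham. Of 7 genes for TRIM-type proteins with other symbols, 1 was past 2-fold: Fsd2 (minispryn), a SPRY-domain protein of the muscle membrane system, had 9.49 in C26 FoxP1-shRNA, 8.14 in C26 scrambled-shRNA and 10.27 in Sham, with folds of 4.37 lower in C26 scrambled-shRNA relative to Sham and 2.55 higher in C26 FoxP1-shRNA relative to C26 scrambled-shRNA. Cmya5 (myospryn), its relative in striated muscle, had 10.59 in C26 FoxP1-shRNA, 10.19 in C26 scrambled-shRNA and 10.75 in Sham. Past 2-fold lower in C26 scrambled-shRNA relative to Sham were 4.33% of all genes. Past 2-fold higher in C26 FoxP1-shRNA relative to C26 scrambled-shRNA were 1.44%. Fsd2 and Trim7 thus shared an order of the 3 arrays, lowest in C26 scrambled-shRNA and highest in Sham. The order was not particular to them, since Trim55, Cmya5, Trim16, Trim32, Phkg1 and Ube2d1 had it too. Trim63 and Trim54 did not. In any case, 3 arrays cannot show that genes vary together.

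Of 12 E2 enzymes known to pair with RING ligases, 2 were 2-fold lower in C26 scrambled-shRNA relative to Sham and 1 higher, with a median of -0.28. Of all genes, 4.33% were that much lower and 3.34% higher. Among genes not dim on all arrays, which include all 12, the shares were 7.40% and 5.70%. Ube2n, which builds lysine-63 chains with TRIM ligases of innate immunity, had 5.04 in C26 FoxP1-shRNA, 4.13 in C26 scrambled-shRNA and 5.77 in Sham. Its partner Ube2v1 had 5.08 in C26 FoxP1-shRNA, 4.45 in C26 scrambled-shRNA and 3.44 in Sham, lowest in Sham. Ube2d1, of the family that most RING ligases can use, had 10.22 in C26 FoxP1-shRNA, 9.32 in C26 scrambled-shRNA and 10.40 in Sham. Ube2l6, the E2 of the interferon-induced modifier ISG15, had 6.81 in C26 FoxP1-shRNA, 5.71 in C26 scrambled-shRNA and 5.92 in Sham and was the one E2 past 2-fold higher in C26 FoxP1-shRNA relative to C26 scrambled-shRNA. In that comparison 1.44% of all genes were that much higher.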

How the data were processed

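RNA pooled from 3 mice per group was hybridized to 1 Mouse Gene 2.0 ST array per group. Per the submitters' processing notes, the authors ran affy 1.36.1 in R 2.15.1 with the Robust Multiarray Average method, and the deposited values are log2, 1 per Entrez gene. The sources used here do not give the genome build or which arrays were normalized together. Of 25206 genes, 23185 had 1 symbol in the platform annotation, none had several and 2021 were unnamed. Members were found by symbol, and they and the gene lists were chosen with earlier results of these data known. Of 215 list symbols, 199 matched by symbol, 1 by synonym and 15 did not.

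Log2 differences, folds and counts at 2-fold were computed with Python 3.11.15, numpy 2.4.6 and pandas 2.3.3, with no filter on dim genes. With 1 array per group no test was possible, and the number of arrays limits precision. Genes named are members past 2-fold or nearest to it, bright members of the role lists, the 3 brightest and 3 dimmest members, and up to 6 members per other list past 2-fold. Trim27, Trim44, Trim68, the bright signalling members, the dim members given in full, Gyg, Dysf, Trim54, Cmya5 and single list members within 2-fold are not covered by it and were picked with their values in view. Other scalings were centring on each array's median, quantile normalization, cyclic loess (limma 3.58.1, R 4.3.3) and centring on the median of 9 reference genes or, added after the values were seen, on their mean. The counting was tested on simulated data.

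Promoters (RefSeq, GRCm38.p6) matched 50 members. The 250 bases before the start were searched first; the window was widened by the 50 bases after it once those counts were known, and the stretches printed were chosen after the matches were seen.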

Additional observations from a re-analysis of the deposited data

How the results depend on the processing

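Alternatives were run on the counts and medians of the 64 TRIM members, and the cause of each move was not tested. In C26 scrambled-shRNA against Sham, 6 members were higher and 9 lower at 1.5-fold, and 0 higher at 3-fold; the median was -0.227 with centring on the median of the reference genes and 0.276 on their mean. In C26 FoxP1-shRNA against C26 scrambled-shRNA, 2 members (Trim7 and Trim12c) were 2-fold higher under each of the 5 other scalings; 4 were higher and 3 lower at 1.5-fold, and 0 higher at 3-fold. The median was 0.0756 with centring on the median of the reference genes and 0.0678 over the genes brighter than the median of at least 1 of both arrays. In C26 FoxP1-shRNA against Sham, 0 members were higher over those brighter genes, without lettered copies, without the Trim6 to Trim30d run and at 3-fold, since each leaves out Trim12a or its size; 4 were higher at 1.5-fold and 4 with centring on the mean of the reference genes. There, 2 were lower with centring on their median and 4 at 1.5-fold, and the median was -0.182 and 0.198 with centring on the median and the mean of the reference genes.

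Centring on the reference genes moved the median of all genes in C26 scrambled-shRNA against Sham by -0.28 (their median) and 0.22 (their mean), so the sign of a small difference depends on the scaling. Of genes past 2-fold there, 43.6% were higher as deposited, 19.2% with the median and 67.2% with the mean; in C26 FoxP1-shRNA against C26 scrambled-shRNA 57.6% were higher as deposited and 77.4% with the median, and against Sham 42.5%, 28.7% and 73.0% as deposited, with the median and with the mean. Of 192 member differences, 71 changed sign under some scaling and 7 crossed 2-fold, but none of the 7 past 2-fold changed sign. Leaving out members by protein identity and comparing proteins were not run, since no protein sequences were used here; lettered symbols stood in for copies. Groups of 1 array allow no leave-one-out fit. No paired analysis was possible because each group has 1 array.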
